A study of Bos taurus with 81 samples.

Results

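H3K27me3 and H3K9me3, a pair of histone methyl marks of repressed chromatin, were compared between 8-cell bovine embryos grown with α-amanitin (8A) and control 8-cell embryos (8C). The comparison rests on 8 of the 81 libraries of the study, 2 for each mark in each group. They were set beside 8 libraries of the same groups for the active marks H3K4me3 and H3K27ac, and beside libraries of 4-cell embryos (4C), 4 for the repressive and 4 for the active marks. A further 24 libraries gave the repressive marks in germinal vesicle (GV) oocytes, 2-cell embryos (2C), morulae (MO), trophectoderm (TE), inner cell mass (ICM) and whole blastocysts (BL). All embryos were produced in vitro from slaughterhouse oocytes and frozen semen. Both 8-cell groups were collected 56 h after insemination, 2C embryos at 32 h, 4C at 44 h, MO at 122 h and BL at 172 h, and GV oocytes before maturation. The 8A embryos had 50 μg/ml α-amanitin in the medium, and the other groups had none. A library pooled about 1000 to 1500 blastomeres from several embryos, or about 500 oocytes for GV. CUT&Tag was the assay: an antibody against the mark brings a transposase to it, which cuts and tags the DNA nearby.

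H3K27me3 is written by Polycomb repressive complex 2 and lies over silenced developmental genes. H3K9me3 is written by SUV39H and SETDB1 enzymes and is best known from heterochromatin and silenced repeats. α-Amanitin blocks RNA polymerase II. In cattle the main wave of embryonic transcription begins around the 8-cell stage, so the inhibitor asks which features of 8-cell chromatin appear without it. The lists hold no RNA, so how completely transcription was blocked was not measured. Nothing in the labels says that the libraries of a group came from separate cultures, so the spread between them may be technical.

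Both marks were somewhat more extensive in the inhibited embryos, and most of the excess for H3K27me3 was in short peaks. H3K27me3 peaks covered 137 and 139.7 Mb of the 29 autosomes in the 8C libraries and 145 and 153 Mb in the 8A libraries (means 138 Mb ± 2.04 and 149 Mb ± 5.68, SD, n = 2). H3K9me3 covered 168 and 167 Mb in 8C and 181 and 179 Mb in 8A (168 Mb ± 0.517 and 180.1 Mb ± 1.54). The groups did not overlap for either mark. The 8A to 8C ratio was 1.08-fold for H3K27me3 and 1.07-fold for H3K9me3 (exact two-sided permutation test, p = 0.33 each, the smallest that 2 against 2 libraries can give). The 4C libraries, at 157 and 143 Mb of H3K27me3, both lay above 8C and on either side of 8A. For H3K9me3, at 163 and 177 Mb, they lay on either side of 8C and below 8A.

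Peaks shorter than 5 kb had a larger fold difference than covered length, but also a wider spread between libraries. There were 3749 and 2178 short H3K27me3 peaks in 8C and 6032 and 5178 in 8A, a 1.96-fold ratio of the geometric means. Short H3K9me3 peaks numbered 2167 and 938 in 8C and 3030 and 2378 in 8A, a 1.88-fold ratio that was 2.86-fold without 8C replicate 1 and 1.24-fold without 8C replicate 2. Longer peaks covered 123 and 132 Mb of H3K27me3 in 8C against 124 and 135 Mb in 8A, so there the groups overlapped (1.02-fold, exact permutation p = 0.667). For H3K9me3 longer peaks covered 160.2 and 164 Mb in 8C and 169.9 and 170.2 Mb in 8A (1.05-fold, exact permutation p = 0.33). Library depth was unknown. The lowest score per 200 bp of peak, a rough stand-in for it, ran from 2.06 to 2.48 in the 8C libraries and from 2.03 to 2.33 in the 8A libraries of these marks, and its part in the lengths was not tested.

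**Figure D1:**
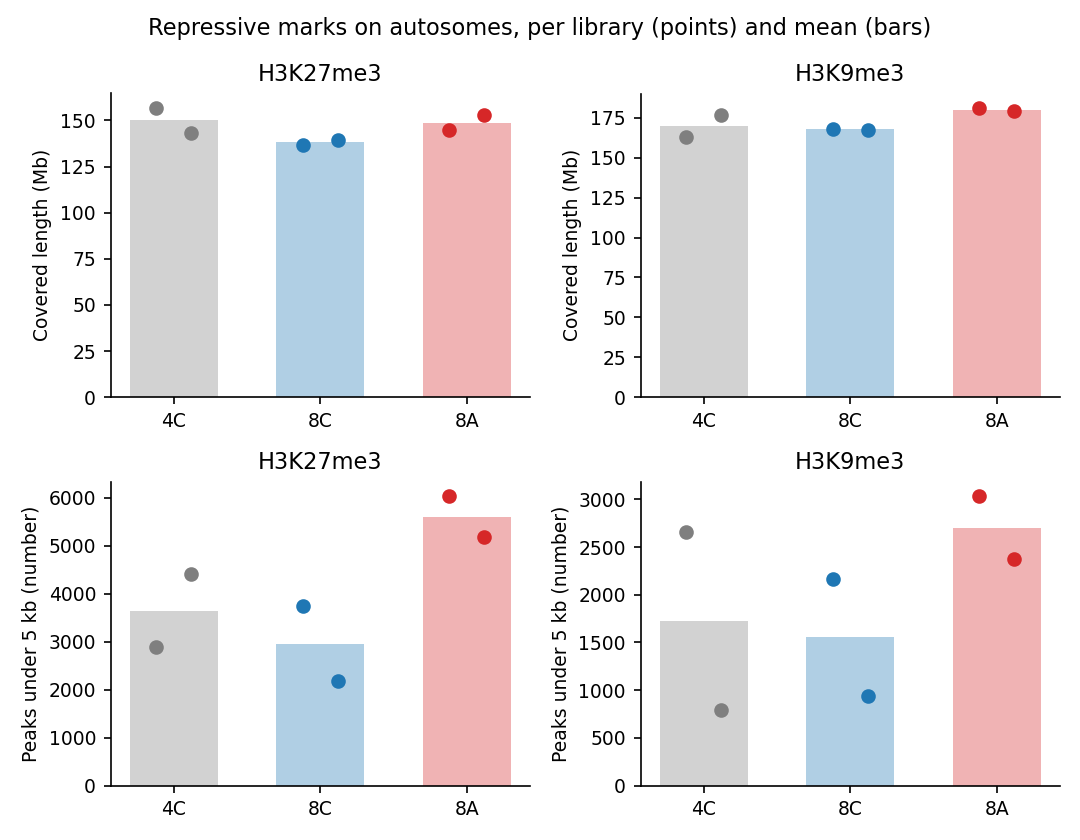
Autosomal length under peaks (upper row, Mb) and number of peaks shorter than 5 kb (lower row) for H3K27me3 and H3K9me3 in 4C, 8C and 8A, with a point per library and a bar at the mean. In all 4 panels both 8A points lie above both 8C points.

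The positions of the marks differed as well as their extent. Overlap was measured per base, as the length common to both lists divided by their union (Jaccard index). It was 0.634 between the 8C libraries and 0.648 between the 8A libraries for H3K27me3, and 0.559 across the groups. For H3K9me3 it was 0.673, 0.685 and 0.613. The within-group excess was 0.0815 for H3K27me3 and 0.0663 for H3K9me3, and both real groupings ranked first of 3 (exact one-sided permutation p = 0.33 each, p = 0.11 over the sum, the smallest values possible). The deviations of same-numbered libraries did not correlate, and the numbers were not used to pair libraries.

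Each autosome was then cut into bins of 5 kb, 497623 in all, and a bin was called marked where peaks covered at least 50% of it. A kept bin was marked in both 8C and both 8A libraries. A bin only in 8C was marked in both 8C libraries and in no 8A library, and a bin only in 8A the reverse. For H3K27me3, 17631 bins were kept, 1998 were only in 8C (0.402% of all bins) and 3292 only in 8A (0.662%). For H3K9me3, 23071 bins were kept, 1877 were only in 8C (0.377%) and 3369 only in 8A (0.677%). Thus 78.5% of the 22469 H3K27me3 bins common to both 8C libraries kept the mark in the 8A pair and 8.89% lacked it in both. For H3K9me3 these shares were 82.2% and 6.69% of 28065 bins. The remaining marked bins were split between libraries of a group, among them 5429 and 6519 H3K27me3 bins and 5330 and 6675 H3K9me3 bins that a single 8C or a single 8A library held.

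Bins only in 8A outnumbered those only in 8C by 1.65-fold for H3K27me3 and 1.79-fold for H3K9me3, making up 62.2% and 64.2% of the bins in either class. When every list was trimmed by score to the same covered length, these shares were 52.4% (2327 only in 8C, 2561 only in 8A) and 51.3% (2335 and 2463), so the imbalance moved with list length. Leaving out any of the 4 libraries of a mark loosens the rule and gave 3201 to 4745 H3K27me3 bins only in 8C and 4967 to 6937 only in 8A. The same step gave 3351 to 4699 and 5325 to 6994 for H3K9me3. The share of bins only in 8A then ran from 51.1% (without 8C replicate 1) to 68.4% (without 8A replicate 1) for H3K27me3 and from 53.1% (without 8C replicate 2) to 66.5% (without 8A replicate 2) for H3K9me3.

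Because the bins were defined on these libraries, the replicate check used bins picked from 1 library of each group and read in the other. H3K27me3 bins in 1 8A library and not in 1 8C library recurred in the second 8A library in 52.9% to 59.8% of cases and in the second 8C library in 26.2% to 30.0%. Those picked in 8C recurred in 48.4% to 51.2% in the second 8C library and in 28.0% to 34.8% in the second 8A library. The gap between own and other group was 24.5 to 31.7 percentage points for bins picked in 8A and 15.2 to 21.3 for bins picked in 8C. H3K9me3 gave 25.8 to 27.8 and 14.4 to 15.7 points. Own-group recurrence was the higher value in each pick made, and over both marks it ran from 48.0% to 59.8%.

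The bins that separated the groups formed short stretches, some of them at the edges of kept domains. Of the H3K27me3 bins only in 8C and only in 8A, 71.9% and 70.8% stood alone with no neighbour of the same class, and for H3K9me3 64.0% and 62.8% did. Their longest runs were 30 kb and 25 kb for H3K27me3 and 40 kb and 25 kb for H3K9me3, against 235 kb and 240 kb for kept bins. Between 21.8% and 34.4% of each class lay next to a kept bin, where 2.50% (H3K27me3) and 2.94% (H3K9me3) of all bins that were not kept did. The threshold of 50% decided some of them: peaks covered 50% to 60% of the bin in the own group for 17.6% to 21.2% of the bins in each class. The other group had no covered base at all in 53.4% of the H3K27me3 bins only in 8C and 67.1% of those only in 8A, and in 53.3% and 70.5% of the H3K9me3 bins.

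The longest runs are not typical of the classes, and their 8C and 8A cover comes from the libraries that defined the bins. Bins fully covered in both own-group libraries and uncovered in the other group made up 8.66% to 15.1% of each class. Gene names are not given, because the annotation at hand is of another assembly, and positions are on ARS-UCD1.2. At chr7:109150001-109180000, peaks of H3K27me3 covered 91.3% and 94.7% of the run in 8C, 0% and 4.67% in 8A and 0% in both 4C libraries. H3K9me3 covered 87.3% and 76.0% of the same run in 8C and 6.67% and 0% in 8A, but 88.0% and 64.0% in 4C. Here the inhibited embryos lacked both marks, and H3K9me3 was there at 4C while H3K27me3 was not. At chr25:1475001-1500000 both marks were instead absent from 8C and present in 8A. H3K27me3 covered 0% in both 8C libraries and 74.4% and 88.8% in 8A, and H3K9me3 covered 0% in both 8C libraries and 95.2% and 88.0% in 8A. At 4C this run was partly marked, with H3K27me3 over 59.2% and 0% and H3K9me3 over 49.6% and 48.0%. H3K4me3 peaks overlaid 24.6% and 38.8% of this run in 8C and 33.4% and 32.6% in 8A, and H3K27ac peaks 0% in both 8C libraries and 19.4% and 14.8% in 8A.

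Further long runs were defined by 1 mark, whether or not the other mark followed. The longest H3K9me3 run only in 8C, chr10:47310001-47350000, was covered to 83.0% and 87.5% in 8C, 5% and 1.5% in 8A and 29% and 21.5% in 4C. In contrast, chr19:12950001-12975000 was covered by H3K9me3 to 0% in both 8C libraries, 93.6% and 98.4% in 8A and 61.6% and 73.6% in 4C. An H3K27me3 run at chr3:97330001-97355000 was covered to 100% and 87.2% in 8C, to 0% in both 8A libraries and to 31.2% and 24.0% in 4C. At chr5:106765001-106790000 both marks were absent from both 8C libraries, while H3K27me3 covered 84.8% and 85.6% and H3K9me3 76.0% and 77.6% in 8A. No H3K4me3 or H3K27ac peak of either 8-cell group touched the chromosome 3 run or this chromosome 10 run.

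Whether both marks differed at the same bins was asked next. Most bins that separated the groups for 1 mark did not do so for the other, but where both did, the direction was nearly always the same. Both marks were only in 8C at 277 bins, which is 13.9% of the H3K27me3 list and 14.8% of the H3K9me3 list. Both were only in 8A at 697 bins, 21.2% and 20.7% of the lists. Opposite directions were found at 52 bins, 26 each way, so 94.9% of the 1026 bins where both marks separated the groups agreed in direction. Over all autosomal bins the matching classes take 0.377% to 0.677%. The peak lists of the marks overlap largely to begin with. Of kept H3K27me3 bins 90.8% were also kept for H3K9me3, and of kept H3K9me3 bins 69.4% were also kept for H3K27me3. Leaving out single libraries gave 330 to 513, 803 to 1193 and 121 to 157 bins for the 3 counts. Trimmed lists gave 378 bins only in 8C, 460 only in 8A and 50 opposite, so the lead of 8A here also narrowed when list lengths were equal.

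The other mark could be read library by library, since it did not choose the bins. At H3K27me3 bins only in 8C, H3K9me3 marked 68.0% and 65.6% in the 8C libraries and 42.8% and 44.7% in the 8A libraries. At H3K27me3 bins only in 8A it marked 46.0% and 44.4% in 8C and 79.2% and 77.1% in 8A. At H3K9me3 bins only in 8C, H3K27me3 marked 41.8% and 42.2% in 8C and 15.7% and 18.5% in 8A. At H3K9me3 bins only in 8A it marked 15.2% and 16.0% in 8C and 46.8% and 51.3% in 8A. All 4 sets were apart without overlap, by 23.0 to 33.4 percentage points between the means (exact two-sided permutation p = 0.33 each, the smallest possible). The share over all bins was nearly the same in both groups, 6.92% and 7.45% for H3K9me3 and 5.72% and 6.18% for H3K27me3. The other mark was thus the more frequent in the group that defined the class, for each mark and direction, and was present at part of the bins in the other group.

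**Figure D2:**
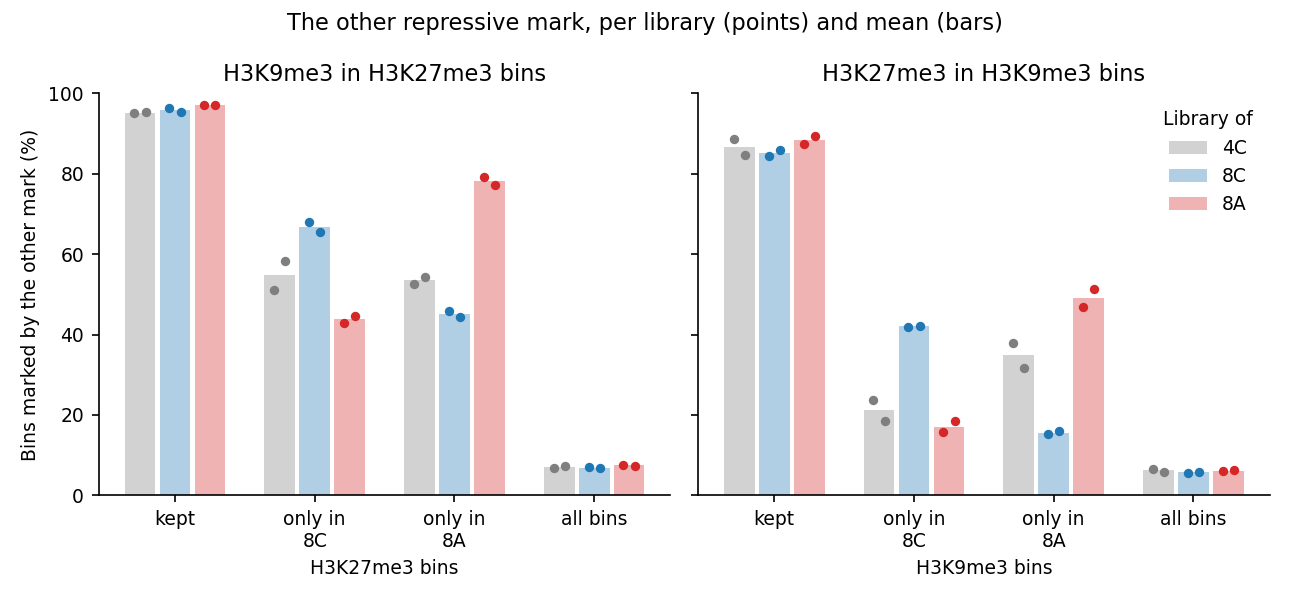
Share of H3K27me3 bins marked by H3K9me3 (left, %) and of H3K9me3 bins marked by H3K27me3 (right, %) in the libraries of 4C, 8C and 8A, with a point per library and a bar at the mean. In bins only in 8C the 8C bars (66.8% and 42.0%) stand above the 8A bars (43.8% and 17.1%), and in bins only in 8A the order is reversed (45.2% and 15.6% in 8C, 78.2% and 49.1% in 8A).

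The 4-cell libraries showed which bins were already marked a stage earlier. Kept bins nearly all were: 87.4% of kept H3K27me3 bins and 90.3% of kept H3K9me3 bins had the mark in both 4C libraries, and 2.99% and 1.86% had it in neither. Of H3K27me3 bins only in 8C, 23.2% were marked in both 4C libraries and 45.9% in neither. Of those only in 8A, 32.3% were marked in both and 38.9% in neither. For H3K9me3 the order was the other way round, with 27.5% in both and 33.2% in neither for bins only in 8C, and 19% in both and 51.2% in neither for bins only in 8A. Every class therefore mixed bins carried over from 4C with bins not marked there.

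Per library, 40.7% and 36.6% of the H3K27me3 bins only in 8C and 50.1% and 43.2% of those only in 8A were marked at 4C. The H3K9me3 shares were 42.4% and 51.9% for bins only in 8C and 33.7% and 34.1% for bins only in 8A. The order of the classes kept its sign under the other bin sizes, cover thresholds, score filter and trimmed lists. It turned when the class with the higher share was picked from a single library of its own group. That choice adds bins held by a single library of the group. These were marked at 4C less often, with means of 26.4% (H3K27me3, 8A) and 23.5% (H3K9me3, 8C). No other source of the turn was tested. For H3K27me3, the 8A minus 8C gap of 7.99 points became -12.0 and -13.6 without 8A replicate 1 or 2, and 23.9 and 25.8 without 8C replicate 1 or 2. For H3K9me3, the gap of -13.3 became 10.7 and 14.2 without 8C replicate 1 or 2, and -30.1 and -32.3 without 8A replicate 1 or 2.

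Read from the 4-cell side, 3066 of the 497623 bins were marked by H3K27me3 at 4C in duplicate and absent from 8C. The 8A pair shared 34.6% of these and lacked 36.4%. Another 1997 bins were absent at 4C and present in the 8C pair, and of these the 8A pair shared 26.4% and lacked 45.9%. For H3K9me3, 1588 bins were present at 4C and absent from 8C, and the 8A pair shared 40.3% and lacked 30.2%. Of 1480 bins absent at 4C and present in 8C, it shared 28.9% and lacked 42.1%. Over all 497623 bins, the 8A pair shared 24571 for H3K27me3 and 30499 for H3K9me3. In part this restates the classes above. The bins lost by 8C but shared by 8A, 1062 for H3K27me3 and 640 for H3K9me3, are bins only in 8A. Those gained by 8C but lacking in 8A, 917 and 623, are bins only in 8C. Bins that the control embryos did not carry over from 4C were thus in part present and in part absent in inhibited embryos, for both marks.

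The H3K9me3 classes also differed in oocytes. Among H3K9me3 bins only in 8C, 63.2% and 62.1% were marked by H3K9me3 in the GV libraries, against 69.3% and 70.2% of kept bins. Among those only in 8A, 17.2% and 16.7% were, against 7.75% and 7.65% of all bins. In 2C embryos the shares were 29.3% and 25.5% for bins only in 8C and 15.2% and 17.9% for bins only in 8A. In the blastocyst libraries the order was reversed. TE, the outer layer of the blastocyst, had 15.8% and 15.3% for bins only in 8C against 35.9% and 35.8% for bins only in 8A. BL had 9.91% and 13.0% against 23.9% and 29.9%, and ICM 9.91% and 11.7% against 17.2% and 21.7%. The mean gap in oocytes, 62.6% against 16.9%, was 59.6% against 14.4% in trimmed lists. It was narrowest without 8C replicate 2, at 48.2% against 26.8%.

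H3K27me3 showed no such excess of bins only in 8C. In oocytes, 15.6% and 14.8% of bins only in 8C and 34.4% and 32.3% of bins only in 8A were marked, against 33.1% and 34.5% of kept bins. Later, 27.4% and 26.5% of the bins only in 8C and 44.7% and 44.6% of those only in 8A were marked in BL. The 4 ICM and TE libraries had the same order, as did MO. The stage libraries were not used to choose the bins, but shares of a class within a library are a description and were not tested.

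**Figure D3:**
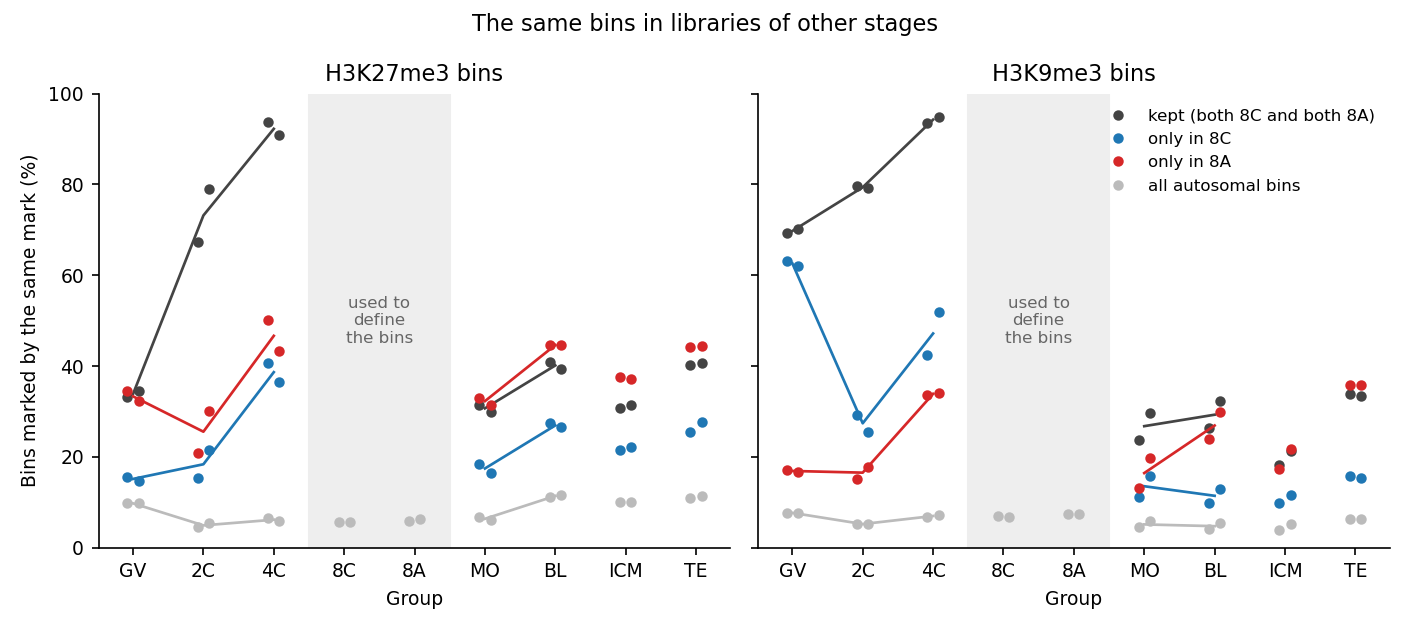
Share of kept bins, bins only in 8C, bins only in 8A and all autosomal bins (%) that carried the same mark in libraries of each group, from GV oocytes to TE, with a point per library and lines through the means of GV, 2C and 4C and of MO and BL. In the H3K9me3 panel the bins only in 8C start at 62.6% in GV and the bins only in 8A at 16.9%. BL, ICM and TE have the reverse order.

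Bins only in 8A held H3K4me3 at 4C more often than all bins and than bins only in 8C. H3K4me3, found at active and poised promoters, had a peak in 47.0% and 49.8% of the H3K27me3 bins only in 8A at 4C, and in 16.6% and 19.7% of those only in 8C. All bins gave 15.1% and 16.8%. For H3K9me3, 50.3% and 52.6% of bins only in 8A and 10.2% and 13.6% of bins only in 8C held an H3K4me3 peak at 4C. Where both marks were only in 8A, the mean was 66.2%. The order held in trimmed lists, at 29.1% against 8.96% for H3K27me3 bins and 30.0% against 4.56% for H3K9me3 bins.

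Within a class of 1 mark, the H3K4me3 shares of 8A and 8C overlapped. At bins with both marks only in 8C they did not, with 7.22% and 9.39% in 8C and 6.50% and 6.14% in 8A. At H3K27me3 bins only in 8A, 32.7% and 41.3% had a peak in 8C and 36.0% and 34.3% in 8A (exact two-sided permutation p = 1). At H3K9me3 bins only in 8A the values were 34.2% and 43.9% in 8C and 38.1% and 35.4% in 8A (exact permutation p = 1). Over all bins the 8A minus 8C difference was -2.31 points. The differences for the 4 classes of bins ran from -2.26 to -1.88 points, near that value. Without H3K4me3 8C replicate 2, the longest of the 8-cell H3K4me3 lists, they turned to 0.125, 2.40, 0.0533 and 2.58 points, and in trimmed lists to 3.78, 13.9, 2.42 and 14.0. No direction can be given for the plain shares.

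Each H3K4me3 share was also divided by the share at bins with no repressive mark in the same library. At H3K27me3 bins only in 8A this ratio was 3.36 and 3.10 in 8C and 3.83 and 3.89 in 8A, and at H3K9me3 bins only in 8A 3.51 and 3.29 in 8C and 4.06 and 4.01 in 8A. It was 1.28 and 1.24 in 8C and 1.37 and 1.39 in 8A at H3K27me3 bins only in 8C. Kept bins went from a mean of 2.12 in 8C to 2.64 in 8A for H3K27me3 and from 1.92 to 2.35 for H3K9me3. In these 5 sets the 8A ratio was the higher without overlap (exact permutation p = 0.33 each). At H3K9me3 bins only in 8C the groups overlapped, with 0.695 and 0.803 in 8C and 0.793 and 0.701 in 8A (exact permutation p = 1). The H3K4me3 lists covered 68.6 and 112 Mb in 8C and 60.4 and 52.2 Mb in 8A. At H3K27me3 bins only in 8A, the ratio was the higher the shorter the list. No other setting was run for the H3K4me3 ratios, so the part of list length in them was not tested.

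H3K27ac, a mark of active enhancers and promoters, was more frequent in 8A than in 8C at kept bins and at bins only in 8C or only in 8A. At kept H3K27me3 bins it had a peak in 5.01% and 4.29% in 8C and in 16.1% and 14.5% in 8A, a 3.28-fold ratio. At kept H3K9me3 bins it had one in 6.17% and 5.18% in 8C and in 16.6% and 14.8% in 8A, a 2.77-fold ratio. At bins with no repressive mark in any of the 8 libraries, 13.6% and 14.2% held a peak in 8C and 19.5% and 16.2% in 8A, a 1.29-fold ratio. The groups did not overlap in any of these sets (exact two-sided permutation p = 0.33 each, the smallest possible). A bin counted here with any base covered, and the 8A lists held more and narrower H3K27ac peaks. Autosomal peaks numbered 80815 and 84007 in 8C and 145582 and 107635 in 8A. Their median widths were 0.9 and 0.85 kb in 8C and 0.55 and 0.75 kb in 8A. By covered length the bins with no repressive mark were nearly alike, at 3.79% and 3.80% in 8C and 4.00% and 3.85% in 8A. Kept H3K27me3 bins still differed, at 1.54% and 1.26% in 8C and 3.82% and 4.00% in 8A. Over all bins, 30282 had an H3K27ac peak in both 8A and no 8C library (6.09%) and 14289 the reverse (2.87%). Of kept H3K27me3 bins, 8.74% were of the first kind and 0.998% of the second, and of kept H3K9me3 bins 8.52% and 1.34%.

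In the classes that separated the groups, the 8A libraries were again the higher. Over all bins, 13.0% and 13.4% held an H3K27ac peak in 8C and 19.4% and 16.2% in 8A. The 8C range overlaps the 8C values of H3K27me3 bins only in 8A. At H3K27me3 bins only in 8C, where the inhibited embryos lacked H3K27me3, the H3K27ac share was 5.81% and 4.90% in 8C and 15.7% and 14.0% in 8A. At H3K27me3 bins only in 8A, where they had it, the share was 15.6% and 13.0% in 8C and 32.9% and 28.7% in 8A. At H3K9me3 bins only in 8C it was 4.69% and 4.74% in 8C and 12.2% and 10.1% in 8A, and at those only in 8A 16.1% and 14.8% in 8C and 34.8% and 30.6% in 8A. More H3K27ac in 8A than in 8C was thus found at bins with the repressive mark in 8A alone as well as at bins with it in 8C alone. At bins only in 8C, however, the 8A shares lay below those over all bins. Bins with H3K27ac in both 8A and no 8C library made up 7.41% of H3K27me3 and 4.95% of H3K9me3 bins only in 8C. They made up 16.5% and 15.6% of bins only in 8A, against 6.09% of all bins. Where both repressive marks were only in 8A, 19.4% and 16.1% of the bins held H3K27ac in 8C and 47.9% and 41.9% in 8A.

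Each H3K27ac share was also divided by the share at bins with no repressive mark in the same library. This ratio can still move with list length. The H3K27ac lists covered 43.4 and 44.0 Mb at 4C, 90.5 and 89.7 Mb in 8C and 100.7 and 97.7 Mb in 8A. At kept H3K27me3 bins this ratio was 0.369 and 0.303 in 8C and 0.825 and 0.892 in 8A, with 0.569 and 0.560 at 4C. At kept H3K9me3 bins it was 0.454 and 0.365 in 8C and 0.854 and 0.913 in 8A, with 0.624 and 0.589 at 4C. Kept bins thus carried H3K27ac less often than unmarked bins in all 6 libraries, with the lowest ratios in 8C and the highest in 8A. The 8A ratio was higher than the 8C ratio for kept bins, bins only in 8C and bins only in 8A of both marks (exact permutation p = 0.33 each). At H3K27me3 bins only in 8A the ratio was 1.15 and 0.914 in 8C, 1.69 and 1.77 in 8A and 1.65 and 1.68 at 4C. For H3K9me3 bins only in 8A these were 1.18 and 1.04, 1.79 and 1.88, and 1.84 and 1.87. There the 8A ratios were near those of 4C. At bins only in 8C of either mark, both 8A ratios exceeded both 4C ratios. The 4C ratios come from shorter lists, and the comparison with 4C was not made at equal list length. In trimmed lists the difference in plain shares shrank to 3.05 and 6.07 points at H3K27me3 bins only in 8C and only in 8A, from 9.48 and 16.5. At H3K9me3 bins it shrank to 1.73 and 6.98 points, from 6.42 and 17.3. The ratio to unmarked bins in trimmed lists was 0.330 in 8C and 0.805 in 8A at kept H3K27me3 bins, from 0.336 and 0.859. At bins only in 8A it was larger in both groups, at 1.24 and 2.04 from 1.03 and 1.73 for H3K27me3 and at 1.43 and 2.35 from 1.11 and 1.84 for H3K9me3.

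**Figure D4:**
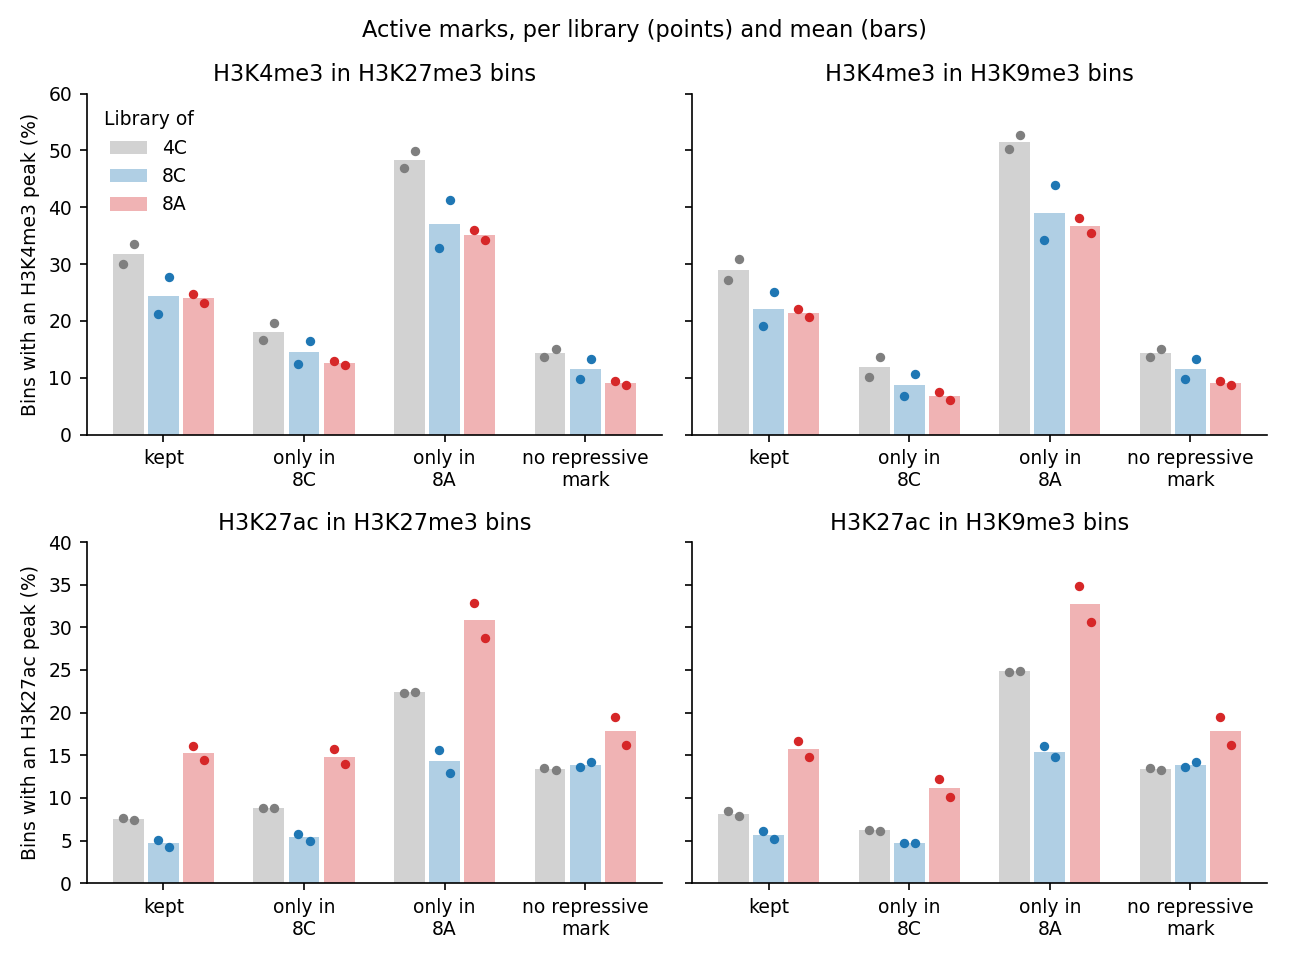
Share of bins (%) with a peak of H3K4me3 (upper row) or H3K27ac (lower row) in kept bins, bins only in 8C, bins only in 8A and bins with no repressive mark, in the libraries of 4C, 8C and 8A, with a point per library and a bar at the mean. H3K27ac is highest in 8A in every set, with kept H3K27me3 bins at 4.65% in 8C and 15.3% in 8A, while the H3K4me3 points of 8C and 8A overlap in every set except the bins with no repressive mark.

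The bins only in 8A were unevenly spread over the autosomes. On chromosome 19 there were 301 H3K27me3 bins only in 8A and 51 only in 8C, with 213 and 26 on chromosome 25. For H3K9me3 the counts were 316 and 26 on chromosome 19 and 199 and 29 on chromosome 25. These chromosomes, gene-dense ones in cattle, hold 4.25% of all bins but 15.6% of H3K27me3 bins only in 8A and 15.3% of H3K9me3 bins only in 8A. They hold 3.85% and 2.93% of the bins only in 8C and 9.74% and 10.2% of kept bins. Chromosomes 18, 23 and 29 had the next highest shares of H3K9me3 bins only in 8A, at 1.47%, 1.38% and 1.36% of their bins. They were named after their values were seen.

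Per library, H3K27me3 marked 14.9% and 13.4% of chromosome 19 at 4C, 11.1% and 11.3% in 8C and 15.1% and 15.4% in 8A. On chromosome 25 it marked 15.6% and 14.2%, 11.4% and 11.4%, and 15.6% and 16.5%. On both chromosomes the 8C libraries lay below those of 4C and 8A. For H3K9me3 chromosome 19 had 14.6% and 15.8% at 4C, 13.7% and 14.7% in 8C and 18.4% and 18.8% in 8A, and both 8A libraries also exceeded both 4C libraries. Both 8A libraries were above both 8C libraries on 19 of 29 autosomes for H3K27me3 (65.5%) and on 18 for H3K9me3 (62.1%). The reverse held on 6 (20.7%) and 5 (17.2%). Chromosomes 1, 4 and 10 were among these, with 8A to 8C ratios of 0.909, 0.904 and 0.867 for H3K27me3 and 0.906, 0.919 and 0.960 for H3K9me3.

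Across the 29 autosomes, the share of 8A among bins of either class correlated between the marks (Pearson's r 0.858, Spearman's rho 0.812), where the marks share chromosomes and, in part, bins. Without chromosomes 19 and 25, bins only in 8A still made up 59.1% and 61.0% of the bins that separated the groups. The trimmed lists had 16.5% and 15.1% of bins only in 8A on these chromosomes and 3.57% and 3.30% of bins only in 8C. The last 2 Mb of the autosomes, which hold 2.33% of all bins, held 9.54% of H3K27me3 and 9.11% of H3K9me3 bins only in 8A. They held 6.81% and 5.54% of bins only in 8C and 15.3% and 13.2% of kept bins.

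**Figure D5:**
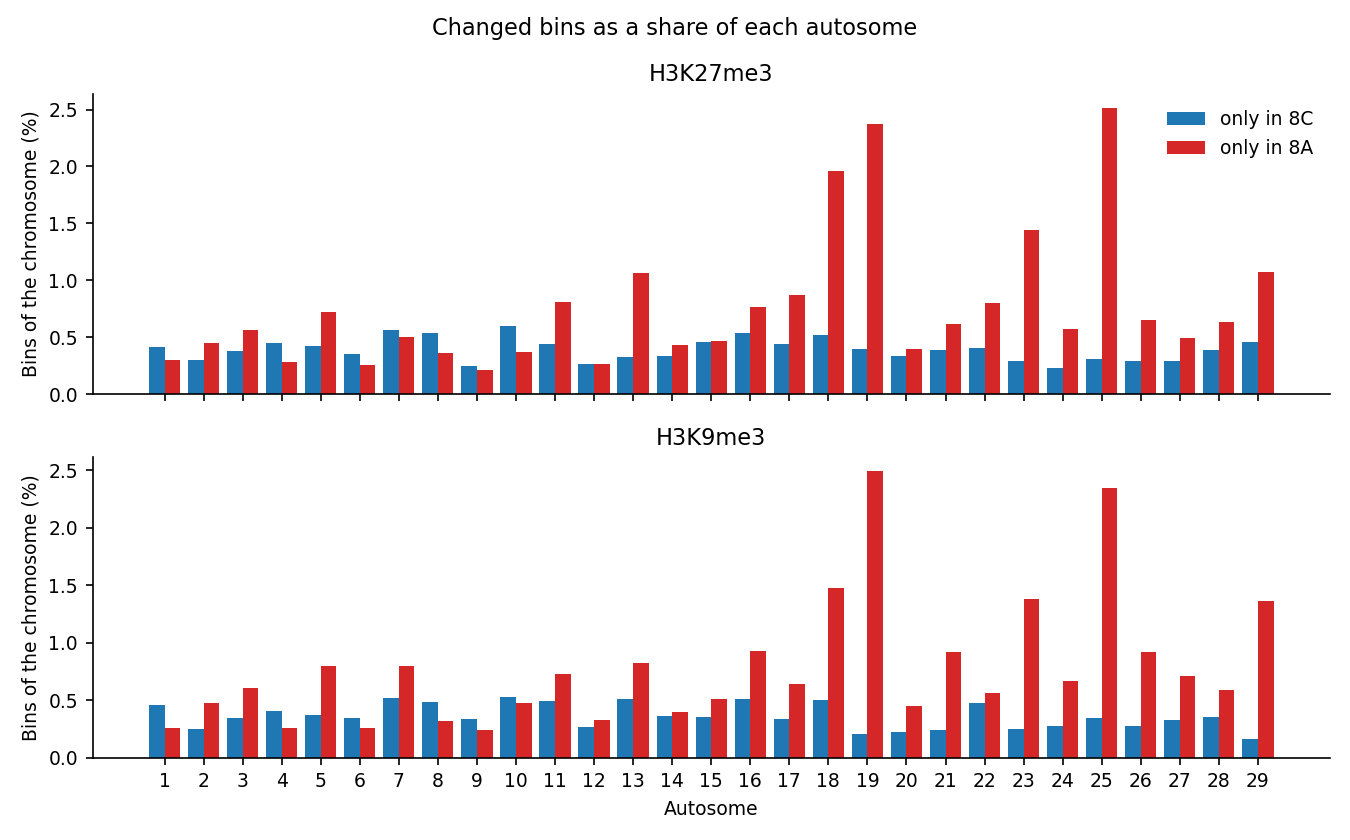
Bins only in 8C and bins only in 8A as a percentage of the bins of each autosome, for H3K27me3 (upper) and H3K9me3 (lower). Chromosomes 19 and 25 have the highest share of bins only in 8A for both marks (2.37% and 2.51% for H3K27me3, 2.49% and 2.35% for H3K9me3), while the share only in 8C is at most 0.60% on any autosome.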

How the data were processed

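The authors deposited a separate peak list for each of the 81 libraries. The build ARS-UCD1.2 and the tools BWA 0.7.9a, SAMtools 1.9, Picard 2.26.10, Trim Galore 0.4.0, cutadapt 1.8.3 and SICER are named in the processing notes of the submitters, without their order. The lists are named for epic2. Cutoffs and controls of the calling were not found in the labels. The deposited score of a peak is a whole number of unstated meaning and was used to rank peaks within a list. It also gave the depth stand-in (the low percentile of its values per 200 bp given above). Depth per library was unknown, so no counting error can be given and a longer list can reflect more reads.

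Groups came from the titles. Bins, covered lengths, Jaccard indices and exact permutation tests were computed in Python 3.11.15 (pandas 2.3.3, NumPy 2.4.6; plots with matplotlib 3.10.9), and the code was tested on simulated lists. An active mark was counted in a bin where any base was covered. The regions named are the longest runs of bins per mark, direction and combination. Alternatives were other bin sizes and thresholds, joined, filtered or trimmed lists, X included, and each library left out. No identical lists were found. Same-numbered libraries were not paired, since their deviations correlated at 0.00167 (H3K27me3) and 0.00474 (H3K9me3). The bins, classes and measures were chosen with earlier results of these data known. The oocyte, 4C active-mark and chromosome shares, the ratios to unmarked bins, the short peaks with each library left out and the setting without chromosomes 19 and 25 were chosen after seeing the data. Gene positions were not used here.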

Additional observations from a re-analysis of the deposited data

How the results depend on the processing

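Lists without depth limit what extents mean, and 2 libraries against 2 cannot pass any threshold, so directions and replicate spread carry the comparison. Covered length and Jaccard separation kept their direction in every setting run, with leave-one-out ranges of 0.07 to 0.14 and 0.09 to 0.11 for the log2 covered length ratio of H3K27me3 and H3K9me3, 0.0746 to 0.0922 and 0.0538 to 0.0734 for the separations, and 0.135 to 0.158 for their sum. With the replicate block, pairing the same-numbered libraries, the log2 ratios stayed at 0.11 and 0.10 (exact sign-flip p = 0.5, the smallest possible), and it changed no count. Bins of 2 kb, being more numerous, gave 42466 kept, 5098 only in 8C and 8277 only in 8A for H3K27me3, 55852, 4670 and 8467 for H3K9me3, and 647, 1706 and 160 bins with both only in 8C, both only in 8A or opposite. Bins of 10 kb gave 8695, 1058 and 1506, then 11695, 952 and 1616, then 153, 278 and 27. A threshold of 75% gave 2165 H3K27me3 bins only in 8A and 314 with both marks. The 4C share of H3K9me3 bins only in 8A was 35.4% at 75%, 34.7% in 2 kb bins, 32.8% without the lowest-scoring peaks and 35.0% in trimmed lists. In trimmed lists the 4C share of H3K27me3 bins only in 8C was 35.7%, 460 bins had both marks only in 8A, and the H3K4me3 differences reversed to 3.78, 13.9, 2.42 and 14.0 points, as they did without H3K4me3 8C replicate 2 (0.125, 2.40, 0.0533 and 2.58 points). The cause was not tested. Leaving out single libraries, which loosens the rule, gave 18834 to 19604 and 24545 to 25174 kept bins (H3K27me3 and H3K9me3), 3201 to 4745 and 3351 to 4699 only in 8C, 4967 to 6937 and 5325 to 6994 only in 8A, 330 to 513 with both only in 8C, 803 to 1193 with both only in 8A and 121 to 157 opposite. The 4C shares ran from 28.9% to 50.8% and 32.0% to 57.7% for bins only in 8C and from 36.1% to 54.7% and 25.4% to 46.2% for bins only in 8A. H3K4me3 differences ran from -3.93 to 0.125, -6.17 to 2.40, -3.89 to 0.0533 and -7.09 to 2.58 points, and H3K27ac differences stayed positive throughout.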

Other observations

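The X chromosome, left out of the counts above, went against the autosomes as a whole. Its direction was that of chromosomes 1, 4 and 10. Of its 27802 bins, 189 were marked by H3K27me3 only in 8C and 35 only in 8A, and 159 and 23 by H3K9me3. The covered share of X divided by that of the autosomes was 0.571 and 0.620 for H3K27me3 in the 8C libraries and 0.367 and 0.370 in the 8A libraries, with 0.434 and 0.422 at 4C. For H3K9me3 it was 0.515 and 0.536 in 8C, 0.339 and 0.338 in 8A and 0.445 and 0.432 at 4C. The control embryos were thus above 4C on X, and the inhibited embryos below it, for both marks. The active marks had the same order of 8C and 8A, narrowly so for H3K27ac. For H3K4me3 the ratio was 0.435 and 0.410 in 8C, 0.311 and 0.303 in 8A and 0.325 and 0.318 at 4C. For H3K27ac it was 0.332 and 0.261 in 8C, 0.258 and 0.252 in 8A and 0.226 and 0.224 at 4C, so there 8A lay above 4C.

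The longest runs in which the marks went opposite ways were single bins. At chr3:107895001-107900000, H3K27me3 covered 100% in both 8C and both 4C libraries and 0% in both 8A libraries, while H3K9me3 covered 0% in both 8C and 100% in both 8A libraries. At chr8:35195001-35200000, H3K27me3 covered 0% in both 8C libraries and 92.0% and 100% in 8A, and H3K9me3 covered 100% in both 8C and 0% in both 8A libraries.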
